A study of Homo sapiens with 24 samples.

Results

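The untreated state of the bladder cancer cell line CLS-439 was compared by RNA sequencing with that of 3 other bladder cancer lines, T24, 5637 and TCC-SUP. The comparison uses the 3 untreated CLS-439 libraries and the 9 untreated libraries of the other lines, 12 of the 24 libraries in all. The members were chosen by their labels alone, and the contrast is the level in CLS-439 minus the equally weighted mean of the 3 other lines on the log2 scale. All 4 lines are given as human cell cultures, with no genetic change named and no agent added in the untreated groups. The other 12 libraries received 75 µM mitomycin C, a DNA crosslinking drug, for 1 h and were harvested 15 h after treatment, and they serve here as a repeat of the same line contrast. Cells grew in 6-well plates, and libraries were made with a stranded poly(A) kit from column-purified, DNase-treated RNA. Libraries of a line carry the replicate numbers 1, 3 and 4 and are called biological replicates by the submitters. Each line is a single established line, so p-values for single genes measure the spread between these libraries of a line, not between tumors. Untreated libraries held 17103409 to 28821665 counted reads, with 17103409 to 20863429 in CLS-439.

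Bladder cancer lines descend from urothelium, the layered lining of the bladder, and differ in how much of its program they keep. Luminal lines express GATA3, PPARG and uroplakins, basal lines express TP63 and the keratins KRT5 and KRT14, and lines that have lost epithelial traits gain vimentin and fibrillar collagens. Lines also differ stably in homeobox (HOX) codes, innate immune tone and the loss of tumor suppressors, so an untreated comparison describes the identity of a line. Levels are given below as CPM (read counts relative to library size after scaling), and differences as log2 fold changes with their standard error (SE). The SE was derived as the absolute log2 fold change divided by the square root of the test's F statistic. For a gene at or near 0 in a line, the log2 fold change depends on how the fit treats zeros. The SE does not measure that uncertainty, so it is too narrow for such genes. A gene is called higher or lower at a Benjamini-Hochberg adjusted p under 0.05 in edgeR's quasi-likelihood test over all 19523 genes tested.

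The CLS-439 libraries stood apart from the other 9 in how their reads were spread over the human annotation. Genes encoded by the mitochondrial genome took up 0.0250%, 0.0283% and 0.0238% of counted reads in CLS-439 but 3.21% to 5.10% elsewhere. Genes annotated as processed pseudogenes, most of them reverse-transcribed copies of messenger RNAs, held 2.90% to 3.05% against 0.156% to 0.225%. Pseudogenes that bear the symbol of a ribosomal protein gene held 0.661% to 0.745% against 0.0600% to 0.0932%. The 100 most abundant genes of a library held 13.8% to 14.2% of its reads in CLS-439 and 18.8% to 20.9% elsewhere. The groups did not overlap in any of these 4 shares (two-sided exact permutation test over libraries, p = 0.00909 for each and adjusted p = 0.00909, the smallest that 3 against 9 libraries allow). The 9 other libraries come from 3 lines but were taken as separate units, so this p does not measure the spread between lines. The 4 classes also overlap and are not separate findings. Mitochondrial genes can be among the 100 most abundant, and ribosomal protein pseudogenes can be processed pseudogenes. The difference in mean share was -4.256 percentage points for mitochondrial genes and -6.047 for the 100 most abundant genes. Treated libraries gave the same picture, with mitochondrial shares of 0.0240% to 0.0270% in CLS-439 and 3.35% to 7.40% elsewhere, and pseudogene shares of 2.75% to 2.96% against 0.143% to 0.229%. Whether the RNA of these cultures matches the human reference was not tested, and for a gene that is low in CLS-439, less RNA and reads that did not map or mapped to a copy cannot be told apart from counts. This holds for every low value given below. In bulk RNA, fewer cells expressing a gene and less RNA per cell cannot be told apart either.

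**Figure D1:**
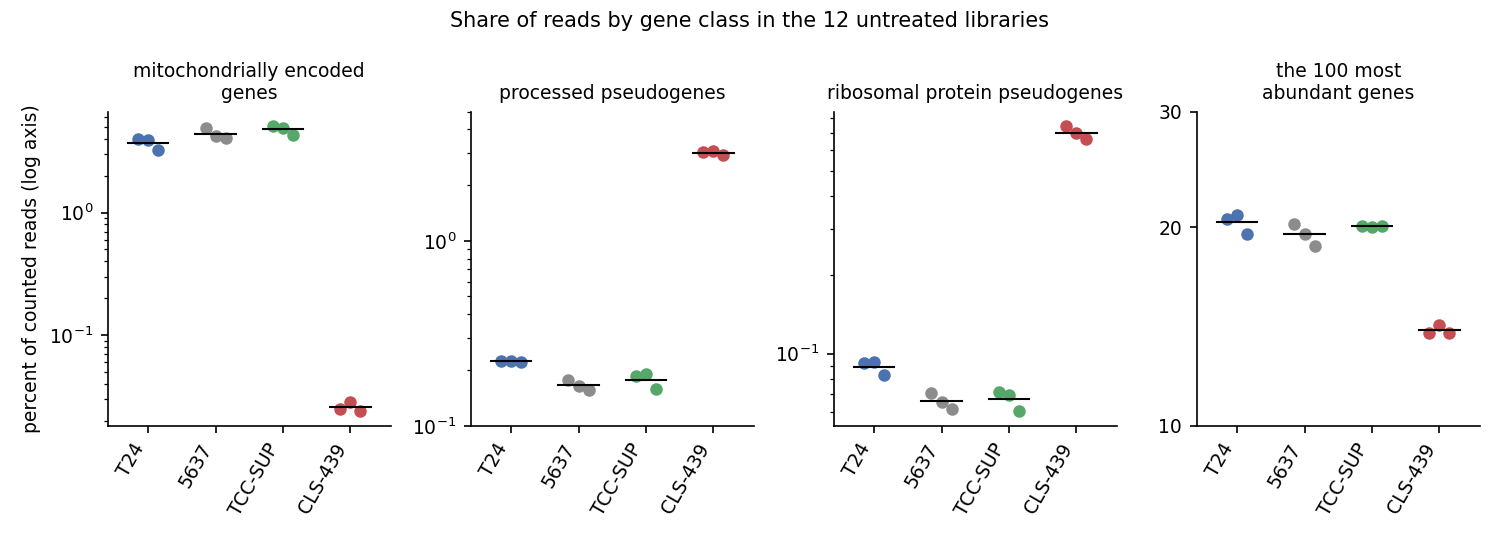
Share of counted reads (percent, log axis) held by 4 classes of genes in each of the 12 untreated libraries, with a bar at the mean of each line. CLS-439 lies near 0.0257% for mitochondrially encoded genes against 4.28% for the mean of the others, and near 3.00% for processed pseudogenes against 0.189%.

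The pseudogene reads can be made concrete with sequences, since a processed pseudogene differs from its coding gene at scattered bases. The stretches below were taken from 3 pseudogenes of high level that are named for their coding gene and were chosen for lying at 10 CPM or more in every CLS-439 library and under 0.5 CPM in every other, each beside the coding gene, over the first 90 bases that align without a gap. They were read 5′ to 3′ from the transcripts of GENCODE release 29 (GRCh38), in the sense direction, and capitals mark the bases at which the members of a pair differ. MTCO1P22 is a copy of MT-CO1, the mitochondrial gene for a subunit of cytochrome c oxidase, and lies in nuclear DNA (chr5:100053686-100055045, minus strand). It is annotated as a processed pseudogene, but as a nuclear copy of a mitochondrial gene it need not be a copy of a messenger RNA. The stretch holds 10 mismatches, and the pair shares 85.7% of 1368 aligned bases.
MT-CO1: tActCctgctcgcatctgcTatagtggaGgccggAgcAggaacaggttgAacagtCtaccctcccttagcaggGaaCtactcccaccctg
MTCO1P22: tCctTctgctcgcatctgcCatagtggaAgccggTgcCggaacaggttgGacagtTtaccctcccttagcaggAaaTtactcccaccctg
RPS2 encodes a protein of the small ribosomal subunit (chr16:1962052-1964860, minus strand), and RPS2P48 is a processed copy of it (chr17:53756989-53757870, minus strand). Their stretch holds 8 mismatches, and the pair shares 94.0% of 882 aligned bases.
RPS2: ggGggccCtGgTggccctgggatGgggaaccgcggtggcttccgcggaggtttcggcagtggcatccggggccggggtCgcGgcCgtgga
RPS2P48: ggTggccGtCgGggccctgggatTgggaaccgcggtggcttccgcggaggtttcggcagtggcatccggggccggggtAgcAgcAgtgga
RPL23A encodes a protein of the large subunit (chr17:28719393-28724359, plus strand), and RPL23AP18 is a processed copy (chr1:212309051-212309518, minus strand). Their stretch holds 6 mismatches, and the pair shares 95.9% of 468 aligned bases.
RPL23A: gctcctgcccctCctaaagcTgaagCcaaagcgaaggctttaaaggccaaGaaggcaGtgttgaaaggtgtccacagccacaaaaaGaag
RPL23AP18: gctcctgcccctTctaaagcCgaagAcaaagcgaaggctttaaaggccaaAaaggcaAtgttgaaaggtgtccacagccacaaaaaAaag

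The copies were chosen by their own levels, which are given as a description, while the levels of the coding genes were not used in the choice. MT-CO1 was counted at 4.56, 7.92 and 5.73 CPM in CLS-439 and at 8910.3 to 11501 CPM in the other libraries, whereas MTCO1P22 stood at 213, 320.3 and 280 CPM in CLS-439 and at 0 to 0.176 CPM elsewhere. RPS2 had 82.4, 74.4 and 71.1 CPM against 1256 to 2375, and RPS2P48 189.8, 214 and 195 CPM against 0 to 0.150. RPL23A had 181, 186 and 177 CPM against 411 to 871, and RPL23AP18 186, 214 and 182 CPM against 0 to 0.185. Each of the 3 coding genes was lower in every CLS-439 library than in every other library. For 78 ribosomal protein genes, pseudogenes that bear the symbol of the gene are annotated. The share of reads held by these pseudogenes was higher in all CLS-439 libraries for 63 of the 78 genes and lower in all for 0. The median over genes of the middle of its range was 12.7% against 0.481%. For single genes the share was 82.2% to 84.8% against 12.3% to 14.9% for RPS2, 74.0% to 77.8% against 5.11% to 9.51% for RPL39, and 70.3% to 73.1% against 0.555% to 1.48% for RPS15A. Copies with clone names are left out of these shares, such as AL355802.1, closest to RPS2, at a mean of 467 CPM in CLS-439. How the authors' counting divided reads among near-identical copies is not given, so values of single members of such families are uncertain.

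Across all genes, 15800 of 19523 differed between CLS-439 and the mean of the other lines (80.9%), 8547 higher (43.8%) and 7253 lower (37.2%), with a median log2 fold change of 0.06. Past 1 on the log2 scale in either direction there were 5769 higher (29.5%) and 4405 lower (22.6%). Against each line alone, 79.7% of genes differed from T24 (43.1% higher, 36.7% lower), 80.6% from 5637 (42.4% and 38.1%) and 83.7% from TCC-SUP (42.1% and 41.6%), whereas the pairs among the other lines differed at 57.9%, 61.9% and 66.0% of genes in the same fit. With so many genes called, a single call carries little, and each list below is read against these shares. Called in the same direction against each of the 3 lines were 5636 genes higher (28.9%) and 4385 lower (22.5%). In 5764 genes all CLS-439 libraries lay above all others (29.5%), and in 4502 all lay below (23.1%). Protein-coding genes were close to balanced, with 5921 higher and 5541 lower of 14402 (median 0.01). Among genes that passed the filter on low counts, 1855 of 1984 processed pseudogenes were called higher, and 448 of 886 long intergenic RNAs and 537 of 933 antisense RNAs were called lower. These counts are a description only, since 1984 of 10186 processed pseudogenes, 886 of 7417 long intergenic RNAs and 933 of 5468 antisense RNAs were tested and a gene could pass through the group in which it is high. No more than 161 of the processed pseudogenes tested were at 1 CPM or more in each library of the other lines. Of long intergenic RNAs at 1 CPM or more in each other library, 62 of 151 (41.1%) were under 0.5 CPM in all CLS-439 libraries, as were 69 of 173 antisense RNAs (39.9%), but 251 of 10470 protein-coding genes (2.40%). With another line in the place of CLS-439, the pool required 1 CPM or more in CLS-439 too. It was thus another set of genes, and its size is not given here. In that count 0 long intergenic RNAs were under 0.5 CPM in T24, 4 in 5637 and 1 in TCC-SUP. Protein-coding genes numbered 98 for T24, 69 for 5637 and 85 for TCC-SUP, beside the 251 for CLS-439.

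**Figure D2:**
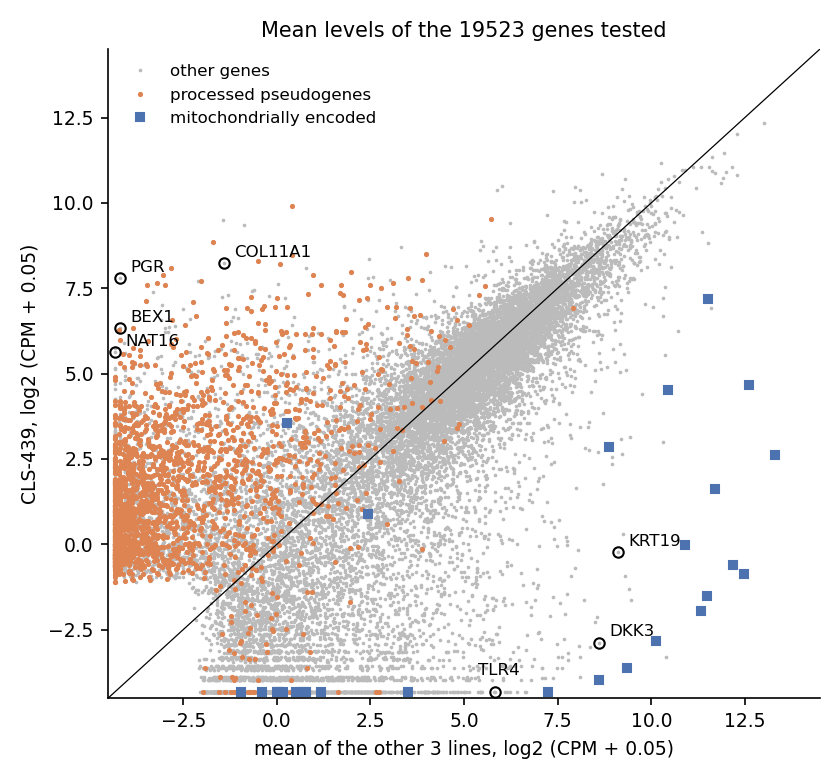
Mean level of each of the 19523 genes tested in untreated CLS-439 (vertical axis) against the mean of the 3 other lines (horizontal axis), both as log2 of CPM plus 0.05, with the line of equality drawn. Processed pseudogenes crowd the upper left, mitochondrially encoded genes lie below the line of equality except for the transfer RNA gene MT-TM, and labels mark the 4 marker genes and 3 genes that were low in CLS-439.

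The 4 genes that mark untreated CLS-439 were well expressed there and at or near 0 in every other library. PGR encodes the progesterone receptor, a hormone-activated transcription factor (chromosome 11, 101029624 to 101130524, minus strand). It stood at 211, 213 and 239 CPM in the CLS-439 libraries, and the other 9 libraries held 1 read together, in TCC-SUP. The pooled ratio was 45906 (95% counting interval 8238 to 1813300). BEX1, a small adaptor-like protein best known from neural and endocrine tissue (chromosome X, 103062651 to 103064240, minus strand), stood at 82.8, 77.5 and 80.3 CPM against 1 read in TCC-SUP, a ratio of 16735 (3002 to 661120). NAT16, a gene of the N-acetyltransferase family (chromosome 7, 101170493 to 101180276, minus strand), stood at 37.2, 58.3 and 52.6 CPM against 0 reads elsewhere and was thus at least 3371-fold higher, with 3 reads over the 9 libraries taken as the floor. COL11A1, which encodes a chain of the fibrillar collagen XI (chromosome 1, 102876467 to 103108872, minus strand), stood at 351, 272 and 283 CPM in CLS-439. TCC-SUP had 1.43, 0.423 and 1.02 CPM, 1 library of 5637 had 1 read, and T24 had none, and the log2 fold change was 12.62 (SE 0.21, adjusted p = 2.59e-17). For none of the 4 did the groups overlap, and each was called higher against each line alone. The 4 markers were chosen with earlier results of these data known, so their levels and calls are a description and not a test. Intervals and floors of this kind cover counting error only.

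**Figure D3:**
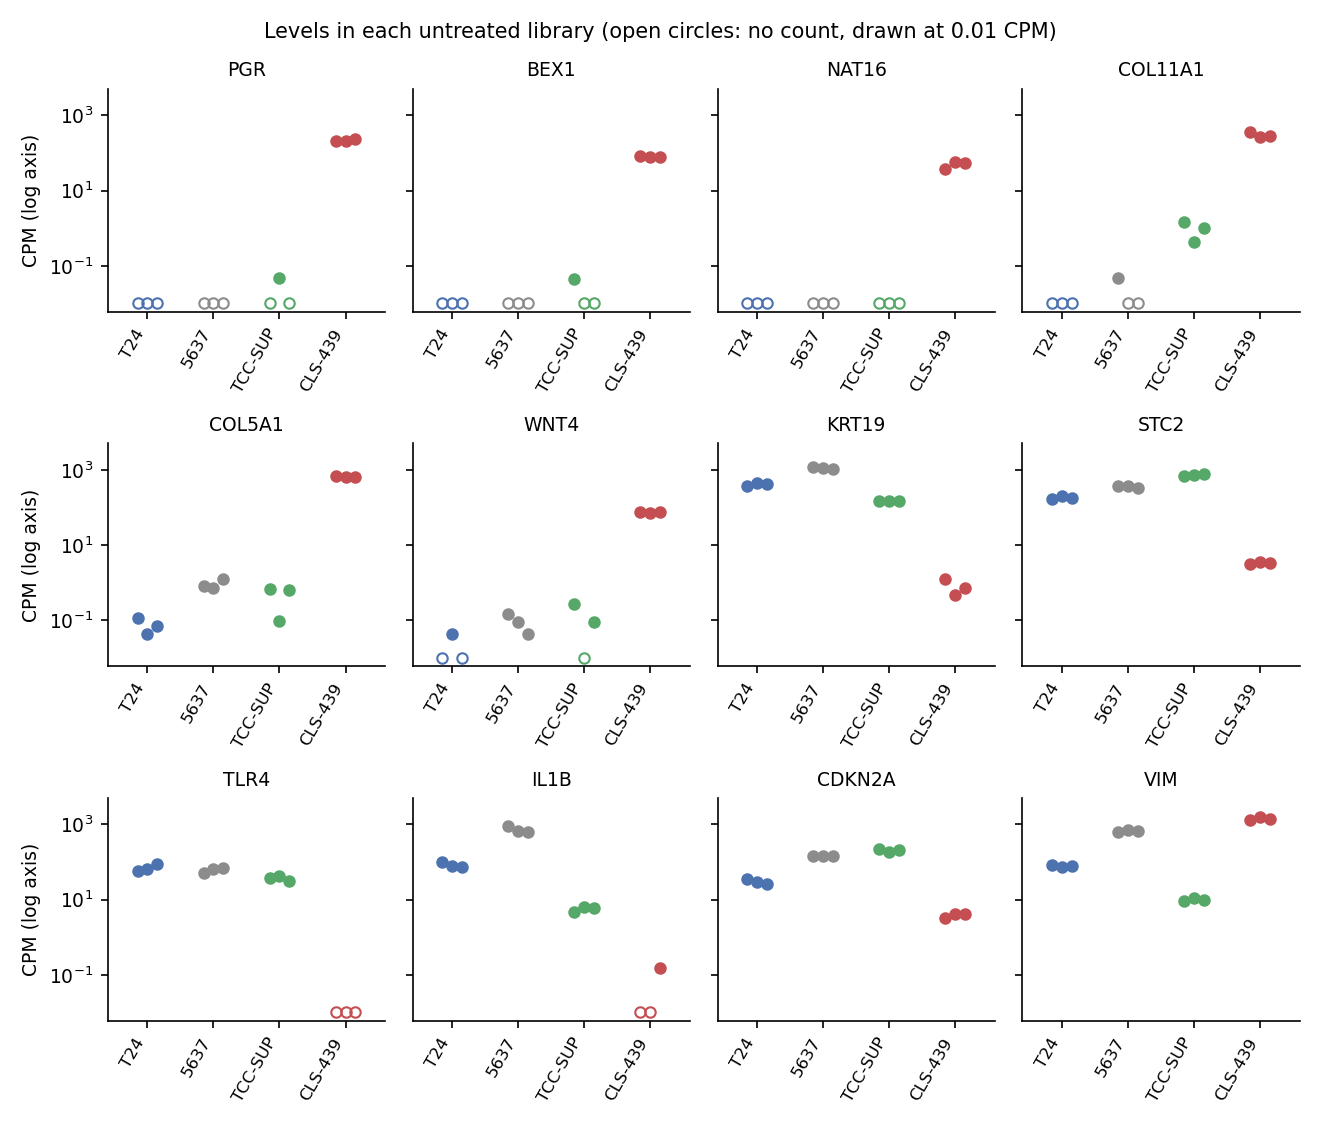
Levels of 12 genes in each untreated library (CPM, log axis), with libraries ordered by line and libraries without a read drawn as open circles at 0.01 CPM. PGR, BEX1, NAT16, COL11A1, COL5A1, WNT4 and VIM are above all other libraries in CLS-439, and KRT19, STC2, TLR4, IL1B and CDKN2A are below all of them.

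PGR counts were not accompanied by counts of ESR1. ESR1, the estrogen receptor that usually drives PGR transcription in breast and uterus, had no read in CLS-439, and 5637 was the only other line with more than 1 CPM (4.81, 5.72 and 7.64 CPM). NR3C1, the glucocorticoid receptor, which binds the same DNA element as PGR, stood at 41.98, 40.6 and 42.03 CPM against 86.8 to 129 (log2 fold change -1.44, SE 0.09). NR3C2, the mineralocorticoid receptor, was lower by more (log2 fold change -3.98, SE 0.36), and NR2F2, an orphan receptor of mesenchyme, went from 92.3 to 271 CPM to 15.7, 20.9 and 17.7. RARB, a retinoic acid receptor often silenced in tumors, had no read in CLS-439 and was at least 184-fold lower. Of 36 steroid and nuclear receptor genes tested, of 44 listed, 14 were higher and 17 lower with a median of -0.34, shares of 38.9% and 47.2% beside 43.8% and 37.2% of all genes.

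Genes known to respond to estrogen or progestin did not move as a block. Of 22 tested, 8 were higher and 10 lower, with a median of -0.88. WNT4, a secreted WNT ligand that progesterone induces in breast epithelium (chromosome 1, 22117305 to 22143969, minus strand), stood at 73.9, 72.9 and 76.2 CPM in CLS-439 and at 0 to 0.268 elsewhere (log2 fold change 10.24, SE 0.19, adjusted p = 3.25e-21). FKBP5, a chaperone of steroid receptors that they also induce, stood at 158, 151 and 152 CPM, above T24 at 43.3, 45.3 and 62.2, 5637 at 20.2, 20.7 and 19.2 and TCC-SUP at 8.16, 7.05 and 8.68. HSD11B2, which inactivates cortisol, was higher by a log2 value of 3.42 (SE 0.25). In the opposite direction, STC2, a secreted glycoprotein induced by estrogen and by stress, stood at 3.21, 3.65 and 3.27 CPM against 165 to 761 (log2 fold change -6.73, SE 0.13). IGFBP4, which binds insulin-like growth factors, stood at 1.05, 1.08 and 1.41 CPM against 155 to 986. For WNT4, FKBP5, STC2 and IGFBP4 the CLS-439 libraries lay outside the range of all 9 others.

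The neighbours of BEX1 on the X chromosome were not uniformly high. In the BEX and TCEAL family, a cluster of small proteins that bind transcription and signaling factors, 7 of 11 genes were higher and 3 lower (median 0.37). BEX4 stood at 54.4, 56.2 and 53.7 CPM against 0 to 2.40 (log2 fold change 7.80, SE 0.17), and BEX2 at 26.2, 18.5 and 21.5 CPM against 0.0880 to 1.48. TCEAL3 went the other way, from 12.4 to 77.9 CPM elsewhere to 0.337, 0.566 and 0.654 (log2 fold change -6.29, SE 0.21). BEX4 and BEX2 were above, and TCEAL3 below, all 9 other libraries. TCEAL1 was higher by only 0.37 on the log2 scale (SE 0.12), TCEAL9 was lower, at -0.39 (SE 0.10), and both overlapped with the other lines.

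Chains that assemble into 1 collagen did not move together. Fibrillar collagens form the tensile fibres of connective tissue and are trimmed by ADAMTS and BMP1 proteases and crosslinked by lysyl oxidases. COL5A1, a chain of collagen V, which starts fibril assembly (chromosome 9, 134641774 to 134844843, plus strand), stood at 673, 659 and 636 CPM in CLS-439 and at 0.0440 to 1.22 in the others (log2 fold change 10.94, SE 0.14, adjusted p = 3.09e-22). Its partner chain COL5A2 was lower against the mean (-1.25, SE 0.12), with a mean of 132 CPM in CLS-439, 876 in T24, 19.4 in 5637 and 1849 in TCC-SUP. COL1A1, the major chain of collagen I, stood at 1466, 1727 and 1798 CPM in CLS-439, far above T24 (2.06, 1.67 and 1.26) and 5637 (30.2, 23.9 and 27.1) but below TCC-SUP (4613, 3505 and 4434). COL1A2, whose product joins that of COL1A1 in the collagen I trimer, had 3 reads in a single CLS-439 library and 4539, 3288 and 4206 CPM in TCC-SUP. Both chains of collagen I were thus counted at high levels in TCC-SUP, whereas in CLS-439 only COL1A1 was. COL1A2 was called lower against the mean (adjusted p = 0.00211), with a pooled ratio of 26532 in favour of the other lines (95% counting interval 9079 to 128660), but that ratio rests on TCC-SUP and the call was lost without library 4 of 5637 (adjusted p = 0.9999). The log2 fold change in that fit was still -4.89. The test may be unable to decide when a line is left with almost no reads. In T24 and 5637 no library exceeded 0.220 CPM, and neither line was called different from CLS-439.

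Enzymes that process collagens moved in both directions. ADAMTS2, which removes the amino-terminal propeptide of fibrillar procollagens, stood at 89.1, 92.8 and 104 CPM against 0 to 0.231 (log2 fold change 11.26, SE 0.18). LOXL1, a lysyl oxidase that also acts on elastin, was higher by 3.94 (SE 0.15), and LOXL4 had no read in CLS-439 and was at least 241-fold lower than the others pooled, although T24 averaged no more than 0.0668 CPM and was not called different. SERPINH1, the collagen chaperone of the endoplasmic reticulum, was higher by 0.72 (SE 0.09). In all, 16 of 30 genes of fibrillar collagens and their enzymes were higher and 11 lower (median 0.51). Among basement membrane and other collagens 14 of 24 were higher and 9 lower (median 0.91). COL14A1, a fibril-associated collagen, stood at 74.3, 53.2 and 57.4 CPM against 0 to 1.43. COL12A1, its close relative, stood at 52.7, 37.4 and 51.7 CPM against 369 to 810.1, so these 2 related chains lay on opposite sides of all other libraries. COL4A1, the common chain of basement membrane collagen IV, was above all others at 733, 666 and 688 CPM.

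Counts of urothelial genes in CLS-439 differed in both directions. GATA3, a luminal transcription factor, stood at 1.39, 2.21 and 2.21 CPM, below T24 (37.6, 27.8 and 19.6), 5637 (34.5, 29.4 and 32.5) and TCC-SUP (60.7, 51.1 and 56.6), with a log2 fold change of -4.27 (SE 0.21). PPARG, a nuclear receptor of luminal cells, was lower by less (-0.88, SE 0.10), and FOXA1 had a log2 fold change of -0.94 (SE 0.17). UPK3B and UPK1B, which encode uroplakin plaque proteins, were higher by 4.92 (SE 0.19) and 4.25 (SE 0.24), UPK3B at 21.5, 19.8 and 21.5 CPM. TBX3, a T-box factor of luminal cells, had no read in CLS-439 and was at least 947-fold lower. Of 19 luminal genes tested, 5 were higher and 12 lower (median -0.94).

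Keratins, the intermediate filaments of epithelium, split in the same way. KRT19, a keratin of simple epithelium and urothelium, stood at 1.22, 0.463 and 0.704 CPM against 144 to 1174 (log2 fold change -8.93, SE 0.18, adjusted p = 7.49e-21). KRT18 stood at 178, 152 and 119 CPM against 629.6 to 2184, whereas KRT8, with which it forms filaments, averaged 640.2 CPM and was not called (-0.10, SE 0.09). KRT7 stood at 1609, 1931 and 1722 CPM, close to 5637 at 2069, 1740.4 and 1713, below T24 at 3261, 3014 and 2084 and above TCC-SUP at 30.3, 30.6 and 34.3. Basal and squamous genes were higher in 6 of 26 and lower in 12 (median -1.73). TP63, the basal master factor, averaged 0.0168 CPM in CLS-439 and 116 in 5637. KRT5 averaged 0.177 CPM in CLS-439 and 1122 in 5637, and its call as lower was lost without library 3 of T24 (adjusted p = 0.9999), whereas its partner KRT14 stood at 28.2, 56.2 and 60.8 CPM in CLS-439, above all other libraries (log2 fold change 6.91, SE 0.38). Without that T24 library the log2 fold change of KRT5 was still -3.15, so the lost call does not show that the difference went away.

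Junction genes and mesenchymal genes were both mixed. EPCAM, an epithelial adhesion protein, averaged 49.1 CPM in CLS-439, 2.78 in T24, 165 in 5637 and 5.33 in TCC-SUP. CDH1, the cadherin of epithelial junctions, averaged 2.05 CPM in CLS-439, between T24 at 0.0125 and TCC-SUP at 42.4, with 165 in 5637. SPINT1, an inhibitor of epithelial surface proteases, stood at 0.169, 0 and 0.0503 CPM against 21.3 to 193, while the desmosomal genes DSC2 and DSP were higher by 7.09 (SE 0.16) and 4.24 (SE 0.11). In total 11 of 34 junction genes were higher and 12 lower (median -0.13).

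Among 30 mesenchymal genes 15 were higher and 10 lower (median 0.40). VIM, vimentin, stood at 1287, 1574 and 1396 CPM, above 5637 at 623, 697 and 674, T24 at 81.5, 72.4 and 79.6 and TCC-SUP at 9.24, 10.95 and 9.47 (log2 fold change 4.15, SE 0.07). CDH2, the mesenchymal cadherin, was higher by 1.03 (SE 0.08) and ZEB1, which represses CDH1, by 3.17 (SE 0.17). FN1, fibronectin, was lower against the mean (-1.04, SE 0.13), while its CLS-439 mean of 1523 CPM was close to that of 5637 (1519). THY1, a surface protein of fibroblasts, had 2 reads in CLS-439 and averaged 0.321 CPM in T24, 25.00 in 5637 and 513 in TCC-SUP.

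HOX genes, which encode position along the body axis and keep their pattern in culture, showed a sharp break in counts within 1 cluster. HOXA2 to HOXA7 were lower against every other line, and HOXA9, HOXA10 and HOXA13, at the other end of the cluster, were higher against the mean but not above all libraries. HOXA3 had no read in CLS-439 and 3.93 to 8.69 CPM elsewhere, at least 126-fold lower, and HOXA2 and HOXA4 had none either. HOXA7 stood at 0.0844, 0.0514 and 0.101 CPM against 9.25 to 23.5 (log2 fold change -7.61, SE 0.24). HOXA9 and HOXA10 averaged 15.8 and 29.7 CPM, with log2 fold changes of 0.63 (SE 0.14) and 0.79 (SE 0.11), and both overlapped with libraries of other lines. HOXA11, next to them, was not called (-0.41, SE 0.77).

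The HOXB and HOXD genes named here differed in the same order along the cluster. Their falls were smaller than that of HOXA7, and their rises were larger than those of HOXA9 and HOXA10. HOXB3, HOXB4 and HOXB7 were lower, at -2.35, -2.63 and -2.63 and lay below all other libraries, while HOXB13, the gene at the far end of that cluster, was higher by 1.45 (SE 0.13). HOXD13, at the far end of HOXD and a gene of limb and urogenital development, stood at 24.5, 22.9 and 21.6 CPM against 4.34, 4.85 and 3.84 in 5637 and at most 0.329 in T24 and TCC-SUP (log2 fold change 6.18, SE 0.17). HOXD4 was lower, at -1.57 (SE 0.23) and HOXD9 and HOXD11 higher by 2.14 (SE 0.11) and 2.88 (SE 0.13). The HOXC cluster had no such break, with HOXC4, HOXC6 and HOXC10 higher by 2.36, 2.28 and 3.15. Over all 37 HOX genes tested, 15 were higher and 15 lower (median -0.32).

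**Figure D4:**
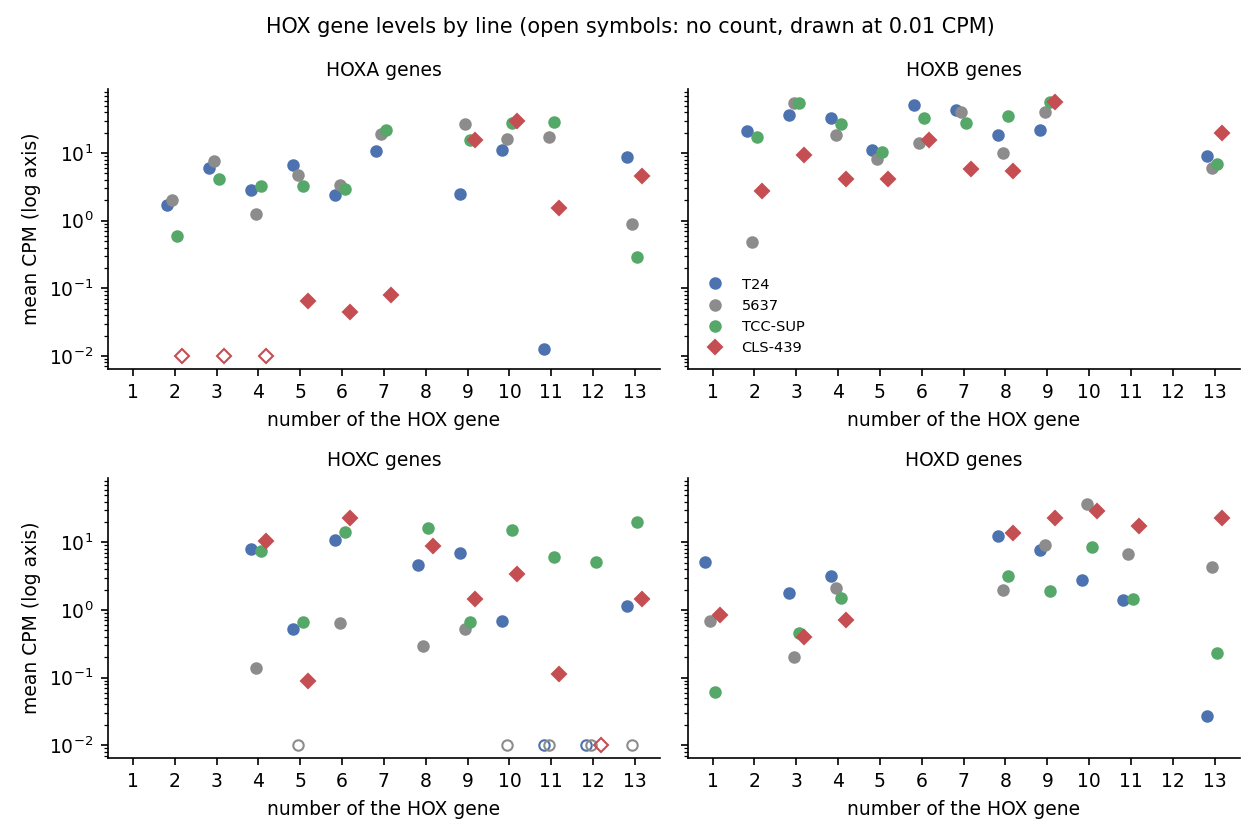
Mean CPM (log axis) of HOX genes in untreated CLS-439 (diamonds) and the other lines (circles), by cluster and by number within the cluster, with open symbols at 0.01 CPM for genes without a read. In HOXA the diamonds of genes 2 to 7 lie below all circles, and from gene 9 on they lie among or just above them.

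Most of the innate immune genes listed were lower in CLS-439 than in the mean of the other lines. Fewer were lower against each line alone, with 12 of 27 NF-kB and cytokine genes, 13 of 35 interferon-stimulated genes and 6 of 22 MHC class I genes. Summed levels overlapped with other lines for interferon-stimulated genes (703 to 789 CPM against 441 to 5800) and MHC class I genes (4939 to 5089 against 4573 to 9919). NF-kB and cytokine genes, which drive inflammation, were lower in 18 of 27 and higher in 3 (median -2.70, with 66.7% lower beside 37.2% of all genes). IL1B, the inflammatory cytokine interleukin-1 beta, had 3 reads in 1 CLS-439 library, against 879, 669 and 637 CPM in 5637, 97.1, 78.1 and 74.2 in T24 and 4.64, 6.49 and 5.96 in TCC-SUP, a pooled ratio of 5488 in favour of the other lines (95% counting interval 1878 to 26611). IL32, another cytokine, had no read and was at least 815-fold lower, and LIF stood at 20.2, 17.5 and 17.4 CPM against 63.5 to 293. NFKBIA, the inhibitor that NF-kB itself induces, was lower, at a log2 fold change of -2.62 (SE 0.11). The members called higher were NFKB2, REL and IL11, at 0.32, 0.47 and 0.76, and each was lower than in 5637. REL was not called without CLS-439 library 1 or 4 (adjusted p = 0.0589 and 0.186). TLR4, the receptor for bacterial lipopolysaccharide upstream of NF-kB (chromosome 9, 117704175 to 117724730, plus strand), had no read in CLS-439 and 30.3 to 89.98 CPM in the others, at least 1206-fold lower.

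Interferon-stimulated genes were lower in 23 of 35 cases and higher in 3 (median -1.71). HERC5, a ligase that attaches ISG15 to proteins, had no read and was at least 373-fold lower, and IFI44 and GBP1 were below all other libraries, GBP1 with 3 reads in CLS-439 and 6.51 to 208 CPM elsewhere. Among the 13 genes lower against each line were ISG15 (-2.34, SE 0.27) and the antiviral GTPase MX2 (-5.70, SE 0.40), while its relative MX1 was not called (-0.06, SE 0.39), its levels in the other lines running from 4.27 in 5637 to 317 CPM in TCC-SUP.

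MHC class I antigen presentation genes were lower in 12 of 22 and higher in 4 (median -0.53). NLRC5, the activator of class I genes, and TAP2, a subunit of the peptide transporter, were lower, at -2.94 (SE 0.14) and -2.26 (SE 0.12). HLA-B stood at 396, 363 and 373 CPM, above T24 and 5637 and below TCC-SUP. HLA-G, a class I gene of the placenta, stood at 18.7, 22.6 and 19.9 CPM against 0.0953 to 2.10 (log2 fold change 5.87, SE 0.16). HLA genes are near-identical and highly variable between people, so the division of reads among them is uncertain.

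The mitochondrial genome and the nuclear genes that work with it did not move together. All 13 protein genes of the mitochondrial genome were lower in CLS-439 (median -13.19, or -12.85 with genes at 0 set to their bound). MT-ND6 had no read in CLS-439 and 75.2 to 243 CPM elsewhere, at least 3260-fold lower, and MT-CYB stood at 0.169, 0.154 and 0.302 CPM against 2018 to 3291. MT-ND1 and MT-ND4, which encode complex I subunits, kept the highest CPM of the 13, at 12.95, 33.9 and 22.2 and 21.98, 29.6 and 24.1 CPM. Nuclear subunits of complex I were higher in 19 of 37 and lower in 11 (median 0.38), and those of complexes II to V in 20 and 7 of 39 (median 0.22). ATP5F1A and ATP5F1B, which encode the alpha and beta subunits of ATP synthase, stood at 1206, 1018 and 1059 and 1798, 1607 and 1626 CPM, above all others (log2 fold changes 1.87, SE 0.07, and 1.42, SE 0.07). NDUFA11 of complex I was higher by 2.47 (SE 0.08), and COX6A1 of cytochrome c oxidase was lower, at -2.83 (SE 0.13). These 2 genes lay above and below all other libraries. MT-TM, a mitochondrial transfer RNA gene, ran against the protein genes, at a mean of 11.7 CPM in CLS-439.

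Genes that transcribe and maintain mitochondrial DNA were higher in 12 and lower in 8 of 27 (median 0.17). POLRMT, the mitochondrial RNA polymerase, and TFAM, which packages the genome and opens its promoters, were lower against the mean (-0.42, SE 0.11, and -0.60, SE 0.10), and both overlapped with other lines. LRPPRC, which stabilizes mitochondrial messenger RNAs, was higher by 1.25 (SE 0.09). PPARGC1B, a coactivator of mitochondrial biogenesis, stood at 75.5, 64.6 and 78.8 CPM against 1.84 to 26.4 (log2 fold change 3.74, SE 0.10), while its relative PPARGC1A had 1 read in CLS-439.

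Cytosolic ribosomal protein genes were lower in 52 of 79 and higher in 8 (median -0.58, with 65.8% lower beside 37.2% of all genes), and 5 were higher in the fit of all 24 libraries. Against each line alone, 41 were lower and 2 higher. The share of reads on pseudogenes that bear their symbols moved with this group, as given above, and its part in the lower counts was not tested. RPS2 had the largest difference of the list (-4.43, SE 0.12), followed by RPL17 (-2.49), RPL29 (-2.41) and RPS25 (-2.40). RPL8 and RPS24 differed by 0.07 and 0.13 and were not called. FAU, which encodes a ribosomal protein fused to a ubiquitin-like protein, was higher by 0.78 (SE 0.09).

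The 160 processed pseudogenes found in CLS-439 alone shared 77.9% to 99.0% of aligned bases with their closest coding gene (median 93.9%). Their closest genes were ribosomal protein genes in 71 cases and mitochondrially encoded genes in 3. They map to 116 coding genes tested, of which 65 were lower and 24 higher (median -0.415), beside 37.2% lower and 43.8% higher of all genes. Median levels of these coding genes were 207 CPM in CLS-439 and 340 CPM in the others. The set was reached through pseudogenes chosen by their level and includes ribosomal protein genes counted above, so these counts are a description. The pseudogenes themselves had a median of 19.8 CPM in CLS-439. MTRNR2L6, a nuclear gene like a segment of mitochondrial ribosomal RNA on chromosome 7, stood at 29.1, 19.9 and 21.2 CPM and had no read in the other lines, at least 1648-fold higher. Commonly used reference genes moved too, with 4 of 20 higher and 11 lower. PPIA, which has many processed copies, was lower, at -1.80 (SE 0.09), and GAPDH lay just outside the threshold (-0.20, SE 0.09, adjusted p = 0.0544). GAPDH was called lower without library 4 of T24 (adjusted p = 0.00924), library 4 of 5637 (0.0353), library 1 of TCC-SUP (0.0487) or library 3 of CLS-439 (0.0233), and with no filter on low counts (0.00999).

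Among genes recurrently altered in bladder cancer, CDKN2A and RB1 moved in opposite directions. CDKN2A, which encodes the inhibitors p16 and ARF (chromosome 9, 21967753 to 21995301, minus strand), stood at 3.16, 4.06 and 4.07 CPM, below T24 at 35.2, 29.6 and 26.1, 5637 at 148, 143 and 148 and TCC-SUP at 222, 188 and 212 (log2 fold change -4.70, SE 0.13, adjusted p = 2.23e-18). Its neighbour MTAP, an enzyme of methionine salvage that is often lost with it, stood at 14.6, 19.3 and 16.7 CPM against 53.5 to 158. RB1, the retinoblastoma protein that p16 keeps active, stood at 145, 148 and 147 CPM, close to T24 at 122, 113 and 137 (log2 fold change 0.24, adjusted p = 0.069) and far above 5637 at 3.53, 5.17 and 4.89 and TCC-SUP at 17.9, 15.5 and 12.5. TERT, the catalytic subunit of telomerase, stood at 0.295, 0.360 and 0.201 CPM against 2.88 to 15.4. The lines with the highest CDKN2A, 5637 and TCC-SUP, were those with the lowest RB1.

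Other drivers were spread over both directions, with 19 of 46 higher and 19 lower. Their median of -0.04 changed sign with the scaling (0.00 with RLE factors and 0.01 with upper-quartile factors). FGFR3, a growth factor receptor mutated in many luminal tumors, stood at 31.8, 26.6 and 26.04 CPM against 0.187 to 1.66 (log2 fold change 5.24, SE 0.15). YAP1, the effector of the Hippo pathway, stood at 1027, 1015 and 1075 CPM against 164 to 384. CCND1, cyclin D1, was below all other libraries (-1.61, SE 0.11).

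CDKN1A, an inhibitor of the cell cycle, was not called (0.08, SE 0.13). EDA2R, a death receptor of the TNF family, stood at 6.75, 5.66 and 6.94 CPM and had no read in the other lines, at least 449-fold higher. BTG2 and ZMAT3 were above all others (1.81, SE 0.17, and 1.43, SE 0.13), whereas the death receptors FAS and TNFRSF10B were below all others (-2.21, SE 0.14, and -2.30, SE 0.09).

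Genes of proliferation went in both directions, with list medians near 0. Of 30 G2 and mitosis genes 7 were higher and 11 lower, with a median of 0.01 that fell to -0.02 in the fit of all 24 libraries. MKI67, a general marker of cycling cells, stood at 493, 478 and 503 CPM against 676 to 1213 (log2 fold change -0.78, SE 0.12). CDK1, the mitotic kinase, was higher by 0.81 (SE 0.09), and AURKA and TPX2, which work together at the spindle, were lower, at -1.10 (SE 0.08) and -1.01 (SE 0.08). Genes of G1/S and DNA replication were higher in 16 of 32 and lower in 11 (median 0.14). CDK2 and MCM6, a kinase and a helicase subunit of S phase, were above all other libraries (1.35, SE 0.07, and 1.54, SE 0.10).

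Enzymes that reduce mitomycin C to its active form and pumps that export drugs were compared in the untreated cells. XDH, xanthine dehydrogenase, stood at 0.0844, 0.103 and 0.101 CPM against 3.97 to 117 (log2 fold change -8.25, SE 0.53). NQO1, a quinone reductase and a known activator of the drug, stood at 239, 272 and 282 CPM, close to 5637 at 225, 248 and 225 and below T24 at 522, 554 and 591 and TCC-SUP at 1055, 768 and 1175. Its relative NQO2 and the reductase POR were above all others, at 75.4, 78.1 and 72.4 and 119, 121 and 110.4 CPM (log2 fold changes 1.95, SE 0.09, and 0.95, SE 0.08). ABCB1, the multidrug efflux pump, stood at 11.7, 9.72 and 11.2 CPM, below T24 at 22.02, 24.9 and 26.2 and above 5637 and TCC-SUP, where no library exceeded 0.416 CPM. In all 5 of 15 such genes were higher and 8 lower (median -0.31).

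WNT signaling genes were higher in 15 of 34 and lower in 10 (median 0.01, -0.01 in the fit of all 24 libraries). The ligand WNT11 and the feedback inhibitors NKD1 and AXIN2, which the pathway itself induces, were above all other libraries, by 6.04 (SE 0.19), 7.13 (SE 0.20) and 4.43 (SE 0.38). AXIN2 stayed low in absolute terms, at 2.95, 2.62 and 1.41 CPM. Secreted antagonists split, with SFRP1 at 58.6, 49.01 and 48.2 CPM against 0 to 34.5, DKK1 at 16.7, 24.01 and 25.04 against 143 to 493 and DKK3 at 0, 0.206 and 0.0503 against 17.5 to 849. SFRP1 was above all others and both DKK genes were below them.

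Imprinted genes, expressed from 1 parental copy, were higher in 9 of 18 and lower in 6. Their median of 0.35 was -0.31 when the table was limited to nuclear protein-coding genes, which drops the RNA genes of the list. H19 and CDKN1C, both on chromosome 11, were above all others, at 19.6, 25.4 and 23.6 CPM against 0.0720 to 3.34 and 27.9, 49.9 and 44.3 CPM against 0.288 to 11.3. MEST and PEG10, both on chromosome 7, were below all others, MEST at 0.127, 0 and 0.0503 CPM against 16.8 to 699 (log2 fold change -9.83, SE 0.33) and PEG10 at 18.01, 18.4 and 16.8 against 86.03 to 260.4. Of 33 cancer-testis antigens listed, germ cell genes that tumors reactivate, 15 were tested and 18 were not. Among the 15, 8 were lower and 1 higher (53.3% and 6.67% beside 37.2% and 43.8% of all genes). The median was -4.53, or -5.35 with genes at 0 at their bound. In all CLS-439 libraries 14 of the 15 were under 0.5 CPM, and 3 were lower against each line. TCC-SUP held the highest mean of every member tested but TEX14 and LIN28B. A gene could pass the filter through the line in which it is high, so these counts are a description. MAGEA3 had no read in CLS-439 and 47.7, 43.2 and 48.2 CPM in TCC-SUP, at least 326-fold lower than the others pooled. TEX14, a germ cell kinase-like gene, was the member called higher, at 0.759, 1.49 and 1.36 CPM against 0.0924 to 0.572.

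Neuroendocrine and neuronal genes were higher in 6 and lower in 11 of 23 (median -1.01). RBFOX3, the neuronal splicing factor known as NeuN, stood at 4.94, 5.40 and 6.89 CPM and had no read elsewhere, at least 395-fold higher. NCAM1, a neural adhesion protein, stood at 17.6, 17.7 and 17.3 CPM against 0.0437 to 8.34. UCHL1, an abundant neuronal hydrolase, stood at 164, 193 and 183 CPM, below TCC-SUP at 398, 344 and 366 and far above T24 and 5637, and the neuronal tubulin TUBB3 was below all others (-4.96, SE 0.30).

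Markers of cells that a bladder culture could carry along were measured as well, and their part in the results above was not tested. The 6 leukocyte markers tested summed to 10.5 to 12.1 CPM in CLS-439 and 0.508 to 43.6 elsewhere, with 3 higher and 2 lower. PTPRC, the pan-leukocyte surface protein CD45, averaged 0.0986 CPM, and its call as lower was lost without library 1 of CLS-439, T24 or 5637 or library 4 of 5637. CD4 had no read, and LYZ, lysozyme, made up most of the sum at 7.68, 7.20 and 8.35 CPM. The 8 endothelial markers summed to 18.3 to 19.3 CPM against 1.91 to 62.02, with 3 higher and 2 lower. TEK, the angiopoietin receptor, accounted for most of it at 16.9, 15.8 and 16.2 CPM, and the endothelial cadherin CDH5 had no read. Fibroblast and smooth muscle markers, 6 higher and 3 lower of 14 (6 lower with DESeq2), summed to 1729 to 2059 CPM against 67.6 to 13670. COL1A1 made up most of that sum, while DCN and LUM, matrix proteoglycans of fibroblasts, averaged 0.0141 and 0.0826 CPM, and ACTA2, smooth muscle actin, 0.0453 CPM. DES, desmin of muscle, stood at 5.61, 5.66 and 6.44 CPM against at most 0.402.

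**Figure D5:**
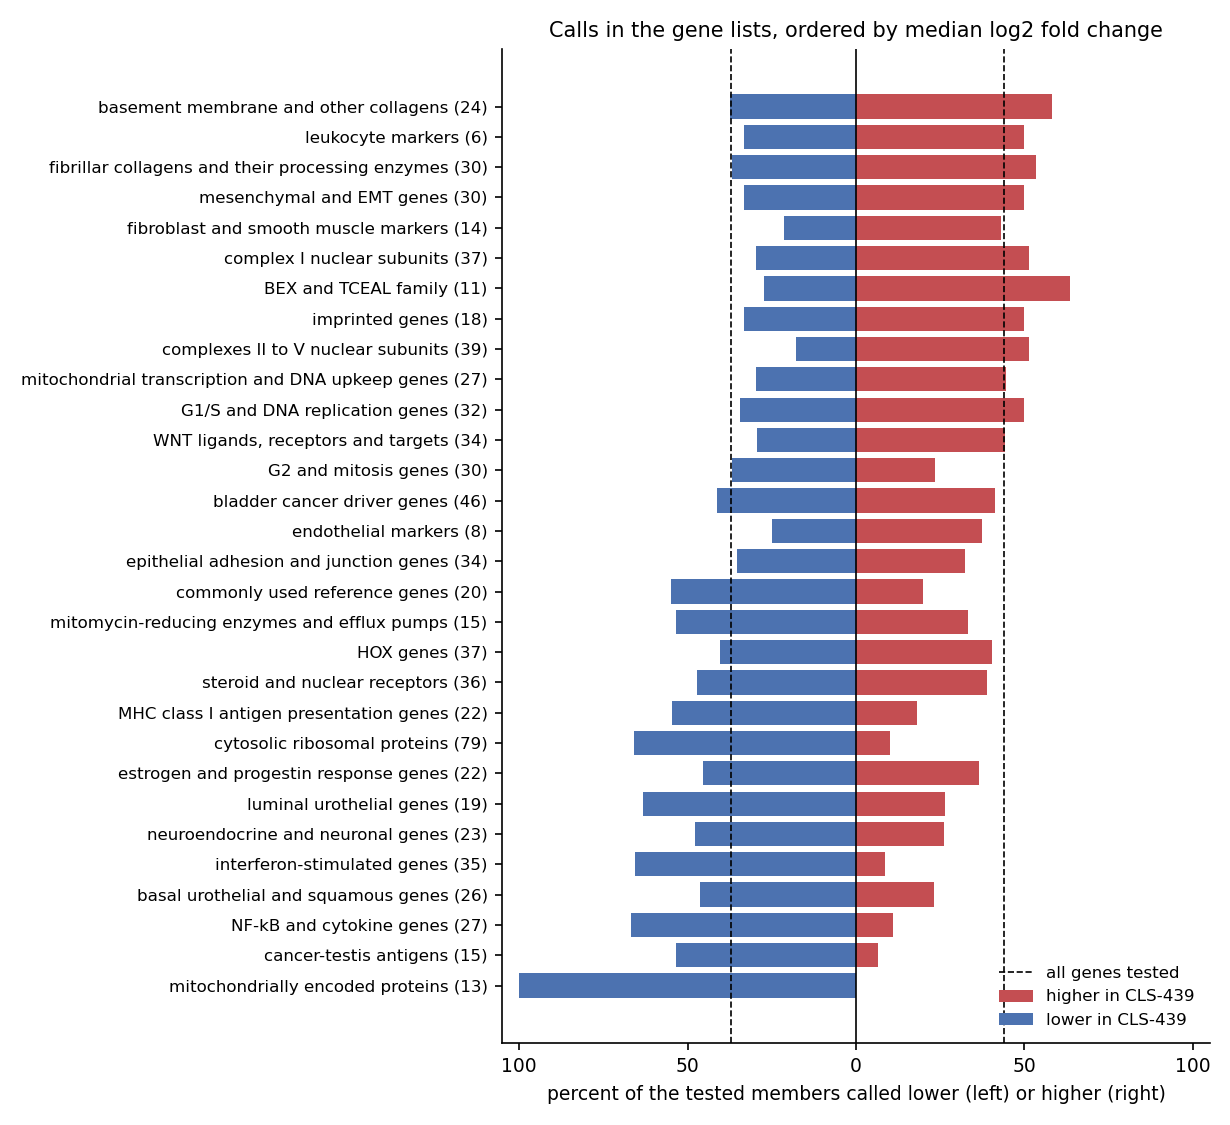
Percent of the tested members of the gene lists called lower (left) or higher (right) in untreated CLS-439 than in the mean of the other lines, ordered by the list's median log2 fold change, with the number tested in parentheses. Dashed lines mark the shares over all genes tested, 37.2% lower and 43.8% higher, and the NF-kB and ribosomal protein lists reach 66.7% and 65.8% lower.

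Outside these lists, the protein-coding genes with the largest rises among genes at 10 CPM or more came from many tissues. DEFB1, an antimicrobial defensin of epithelia including the urinary tract, stood at 35.1, 23.3 and 32.2 CPM with no read elsewhere (at least 2117-fold higher), and TBX18, a T-box factor of ureter mesenchyme, at 18.01, 19.3 and 19.5 CPM (at least 1310-fold higher). PIEZO2, a mechanically gated ion channel, stood at 184, 148 and 171 CPM against 0 to 0.139 (log2 fold change 12.16, SE 0.16). CRYAB, a small heat shock protein, stood at 216, 292 and 306 CPM against 7.72, 1.74 and 5.40 in TCC-SUP and none in T24 and 5637. IL1RL1, the receptor of interleukin-33, stood at 106, 143 and 134 CPM, CDH17, a cadherin of intestine, at 37.8, 52.5 and 54.1, ATP10A, a lipid flippase, at 65.5, 80.4 and 78.1 and KIF1A, a neuronal kinesin, at 70.4, 55.8 and 53.7, none of them over 0.423 CPM elsewhere.

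The largest falls were led by genes with few or no reads in CLS-439. PTX3, a soluble pattern recognition protein, had 1 read in CLS-439 and 40.3 to 321 CPM elsewhere, a pooled ratio of 8893 (95% counting interval 1596 to 351270). ARHGDIB, an inhibitor of small GTPases, had 2 reads against 91.5 to 201 CPM, and IL7R, the interleukin-7 receptor chain, had 3 reads against 107 to 432 CPM. NNMT, which methylates nicotinamide, and SLFN11, which makes cells sensitive to DNA-damaging drugs, had no read and were at least 1475-fold and 985-fold lower. SLFN11 stood at 94.3, 112 and 136 CPM in T24, 5.29, 4.94 and 6.16 in 5637 and 6.96, 8.23 and 10.2 in TCC-SUP.

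Presence and absence were counted without a test. There were 266 genes at 10 CPM or more in each CLS-439 library and under 0.5 CPM in each other library, 2.80% of the 9512 genes at 10 CPM or more in CLS-439, of which 83 were protein-coding and 160 processed pseudogenes. In the opposite direction there were 70 genes, 0.878% of 7969, of which 53 were protein-coding and none a processed pseudogene. Counted in this way, T24 had 4 genes present and 11 absent alone, 5637 had 38 and 4, and TCC-SUP had 65 and 20, with no processed pseudogene among them. Among protein-coding genes alone the CLS-439 counts of 83 and 53 exceed the whole counts of each other line.

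By chromosome, protein-coding genes on chromosome 22 were lower in 234 of 326 cases and higher in 58 (median -0.94). Those on chromosome 18 were higher in 131 of 204 (median 0.79) and those on chromosome 4 in 324 of 536 (median 0.55), against 41.1% higher and 38.5% lower over all protein-coding genes tested.

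The mitomycin-treated libraries, which the comparison above did not use, were tested for the same contrast between lines. Of 19426 genes tested there, 14388 differed (74.1%), 7572 higher (39.0%) and 6816 lower (35.1%). Of the 15800 genes called in untreated cells, 12556 were called in the same direction (79.5% of those calls and 87.3% of the treated ones) and 177 in the opposite one. The 4 marker genes were called higher again. COL11A1 was higher by a log2 value of 11.15 there. COL5A1 was higher by 11.94 and KRT19, CDKN2A and HOXA7 had log2 fold changes of -6.56, -5.27 and -7.67. FAS was not called in treated cells (-0.36, adjusted p = 0.126), and TEX14, higher in untreated cells, was lower in treated ones (-1.59, adjusted p = 0.00732).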

How the data were processed

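Gene expression was measured by RNA sequencing in 24 libraries, of which 12 untreated ones enter the main comparison. The deposited values are raw read counts per gene and library, one table of 58381 Ensembl gene identifiers. Per the submitters' processing notes the tools were STAR 2.5.3a and featureCounts 1.6.2 with GRCh38. Which annotation was used, whether strand was counted and how multi-mapping reads were treated are not given, so values of overlapping, antisense and near-identical genes are uncertain. Symbols, gene classes, coordinates and transcripts came from GENCODE release 29, which held 58216 of the identifiers; the other 165 took 0.0062% of reads.

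Genes were filtered by edgeR's default rule, scaled by TMM and tested with edgeR's quasi-likelihood test (edgeR 4.0.16, limma 3.58.1, R 4.3.3) with 1 mean per line, with Benjamini-Hochberg adjustment at 0.05. The 19523 genes tested in untreated libraries held 99.93% of their reads, library totals ran from 17103409 to 28821665, the common dispersion was 0.0128 with 8 residual degrees of freedom, and the treated libraries were fitted separately (19426 genes). No pair of replicates agreed within sampling noise (lowest chi-square per gene 4.104). CPM are counts relative to the library size after TMM scaling. Read shares were compared with the two-sided exact permutation test over the 220 splits (scipy 1.17.1). For a gene without reads on a side, 3 counts over that side's libraries served as the floor, and for 1 to 3 reads the ratio of pooled rates is given with its exact 95% counting interval. Pseudogenes were matched to coding transcripts with BLAST 2.17.0 (e-value 1e-10, sequences read with Biopython 1.88).

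The model steps were run on simulated data in which only a small part of the genes was changed. That run does not cover a contrast with as many calls as this one. Named genes are members of the 31 gene lists, the 4 marker genes, the 15 largest rises and 15 largest falls among protein-coding genes at 10 CPM or more with a log2 fold change of at least 1 and no overlap between groups, the 10 highest genes found on one side only each way, and the coding genes of described pseudogenes; MT-TM was added after its value was seen. Some genes and a list are not reported here. The comparison, its markers and the lists were chosen with earlier results of these data known. Alternatives were other scalings, DESeq2 1.42.0, no filter, nuclear protein-coding genes only, a replicate block, all 24 libraries in a fit, and each library left out.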

Additional observations from a re-analysis of the deposited data

How the results depend on the processing

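Under the alternatives tried, each count of calls over all genes stayed within 1.5 times its main value. Among the gene lists, the counts that moved by more than that were fibroblast and smooth muscle markers called lower, from 3 to 6 with DESeq2, and ribosomal protein genes called higher, from 8 to 5 with all 24 libraries fitted. Smaller moves with DESeq2 included lower calls of mesenchymal genes (10 to 14), interferon-stimulated genes (23 to 28) and cancer-testis antigens (8 to 12). With RLE scaling, higher calls of G2 and mitosis genes went from 7 to 10. Counts of genes found on one side only, which have no test, moved more. With 5 CPM in place of 10 CPM on the higher side, 511 genes were present and 152 absent in CLS-439 alone, and with 0.1 CPM in place of 0.5 CPM on the lower side 103 and 28, against 266 and 70. Higher calls against the mean ran from 8358 to 8999 and lower ones from 7002 to 7462 when each library was left out in turn, and from 6050 to 11619 and 5390 to 8202 under the other settings. Of the genes named, 3 that were not called changed sign when a library was left out, with log2 fold changes of -0.58 to 0.16 for HOXA11, -0.18 to 0.16 for MX1 and -0.0296 to 0.154 for CDKN1A. The median of all genes tested moved from 0.06 with TMM to 0.103 with RLE and 0.107 with upper-quartile scaling, and 52.9% to 58.6% of calls were higher over all settings. Same-numbered libraries of different lines correlated at -0.044 to 0.119 in their deviations from the line means, so the replicate numbers were not taken to pair the libraries, and the fit with the replicate block called 8589 genes higher and 7302 lower, GAPDH among the latter (adjusted p = 0.0375). The limits are those of the counts: most genes are called, reads on copies or unmapped reads are not seen, and genes at 0 have bounds only.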
